A study of Mus musculus with 6 samples.

Results

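R-spondins, their Lgr receptors and the ligases they hold in check were examined in the joint interzone of mouse embryos, as the 8 genes Rspo1, Rspo2, Rspo3, Lgr4, Lgr5, Lgr6, Znrf3 and Rnf43. The members were taken by gene name from the spots of the arrays that are not controls, which gave 10 probes of 55672 and 8 genes of 35077 on the array. The interzone is the strip of flattened cells at the site of a forming joint, with an intermediate layer between outer layers that face the cartilage. Total RNA was taken from intermediate interzone and from outer interzone of embryos at 15.5 days of gestation, with 3 samples in each group and 1 embryo as 1 biological replicate. No strain, genotype or treatment is given for either group, and the sources used here do not say by what means the layers were parted. Amplified, Cy3-labelled cRNA was hybridised to 6 one-colour Agilent arrays.

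R-spondins are secreted proteins that strengthen Wnt signalling. They bind an Lgr receptor and, at the same time, Znrf3 or Rnf43, a pair of membrane ubiquitin ligases that remove Frizzled and Lrp Wnt receptors from the cell surface. With the ligase drawn away by an R-spondin, more Wnt receptor stays on the cell, and since Lgr5, Znrf3 and Rnf43 are themselves Wnt target genes the system also feeds back on itself. In the limb, Rspo2 is known for its part in outgrowth from the apical ridge, and Lgr5 is known to mark cells of the mouse joint interzone.

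Members of this system differed between the layers in both directions. Rspo2 was 8.51-fold higher in the intermediate layer. The receptor genes went the other way, Lgr6 by 9.71-fold and Lgr4 by 2.88-fold. Lgr5 was well above background in both layers and was not called different, and Rspo3 and Znrf3 did not pass the test. Rspo1 gave a signal on 2 intermediate arrays only, and Rnf43 on no array.

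Each level below is the log2 of a probe's processed signal over the 75th percentile of its array, so a level of 0 equals that percentile, and each difference is outer minus intermediate on this log2 scale. A probe entered the test if all 3 arrays of 1 group or of both showed it well above background by the scanner software's flag, and a gene was called where limma gave an adjusted p under 0.05 over all genes tested. Levels of different genes come from different probes and are not set against each other. The 75th percentile of the signal ranged from 144 to 344 on the intermediate arrays and from 47.4 to 290 on the outer arrays, where outer replicate 1 was the dimmest. The lowest signal called well above background was between 11.9 and 13.6 on every array, and no spot was saturated. All 6 interzone markers were measured, among them the joint growth factor gene Gdf5 at 5.69 ± 1.07 (SD, n = 3) in outer samples against 5.69 ± 0.89 in intermediate ones.

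Of the 8 members, 6 could be tested and 3 were called, with 2 up in outer and 1 up in intermediate samples. Over all 18003 genes tested, 729 were called, or 4.05%, with 1.57% up in outer and 2.48% up in intermediate samples. Scaling each array to its median moved the share of calls that were up in outer samples from 38.7% to 14.4%. With the replicate number as a block, since same-numbered samples of the 2 groups deviated together, 1636 genes were called, or 9.09%, and again 3 members. The share of all genes called was 6.08% with scaling to the median, 5.12% with normexp background correction, 6.75% with slide as a block and 7.3% within the shared slide, settings named below where they change a member's call. The groups did not overlap for 4 of the 6 tested members, Rspo2, Rspo3, Lgr4 and Lgr6, against 27.1% of all genes.

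The oligos behind these values are 60 bases long. The first 30 bases are shown for the probes of the 3 called members and for the other Lgr6 probe, because only 1 of the Lgr6 probes could be tested. They are written 5′ to 3′ as the files give them, with positions on build mm9.

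Rspo2, chr15:42852727-42852786, minus strand: ccttaggtcagtttgtccttagattatgaa

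Lgr4, chr2:109853567-109853626, plus strand: gctctgacatttccaaatttgttgaagtta

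Lgr6, cDNA probe, chr1:136880538-136880597, minus strand: gtctctgttctacatatttggatctgacaa

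Lgr6, RefSeq probe, chr1:136883782-136883841, minus strand: tggagaagagctcctgcgactccacccaag

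The G and C content of the whole oligos was 38.3% for Rspo2, 35% for Lgr4, 41.7% for the cDNA probe of Lgr6 and 55% for its RefSeq probe. The starts of the Lgr6 probes lie 3244 bases apart on the chromosome. Each member probe is spotted 1 time on the array, so no probe's value is a mean over spots.

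**Figure D1:**
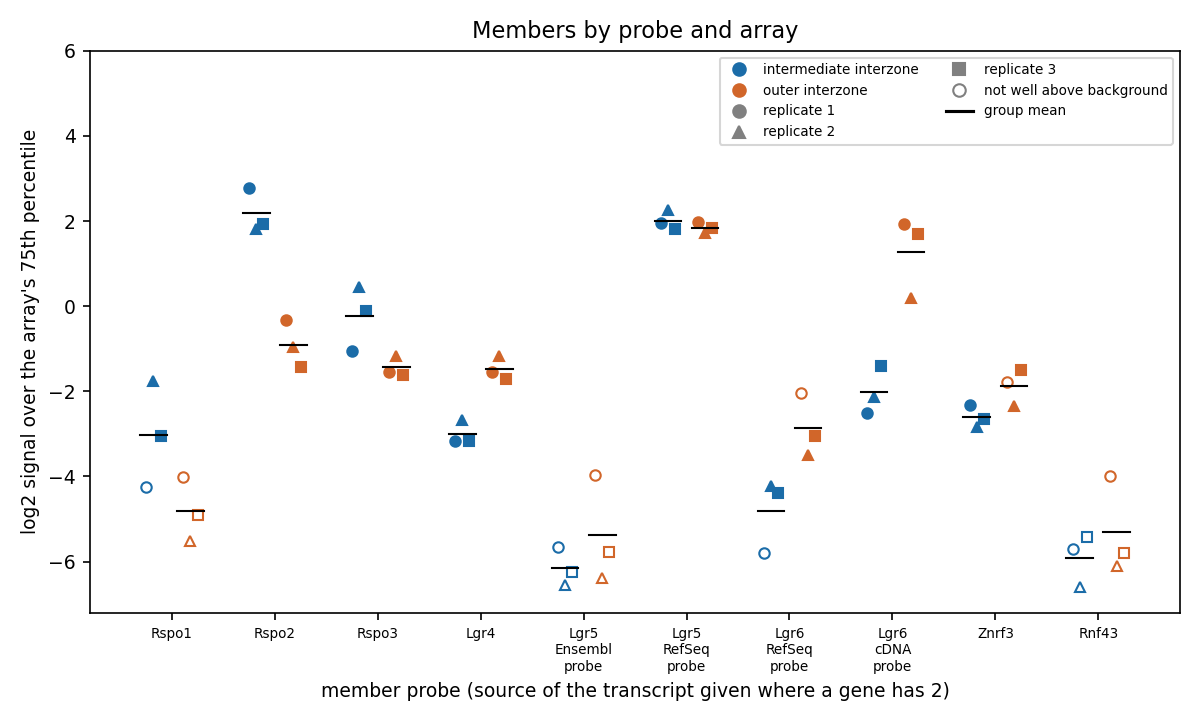
Log2 signal over the array's 75th percentile (vertical axis) for the 10 member probes (horizontal axis) on the 3 intermediate arrays (blue) and the 3 outer arrays (orange), with the mark's shape for the replicate number, open marks for spots not well above background and a bar for the group mean. Rspo2 stands higher on all intermediate arrays, Lgr4 and the cDNA probe of Lgr6 higher on all outer arrays, and the RefSeq-named Lgr5 probe lies between 1.71 and 2.27 on all 6.

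Among the ligands, Rspo2 carried the large difference. Its level was 2.78, 1.82 and 1.94 on intermediate replicates 1, 2 and 3, and -0.33, -0.95 and -1.44 on outer replicates 1, 2 and 3. All 3 intermediate samples lay above all 3 outer samples, with a gap of more than the spread within either group. In processed signal, Rspo2 stood at 991, 938 and 1320 on the intermediate arrays and at 37.7, 150 and 55.2 on the outer arrays, so it was well above background on all 6. The group means were 2.18 ± 0.52 (SD, n = 3) in intermediate samples against -0.91 ± 0.56 in outer ones, so outer samples differed by -3.09 (SE 0.36, 95% interval -3.95 to -2.23, limma adjusted p = 0.012). Same-numbered samples differed by -3.11, -2.78 and -3.38. In such bulk samples fewer cells of a type and less RNA per cell cannot be told apart. Of the 6 arrays, 4 lay on the slide that held all intermediate arrays and outer replicate 1. With slide as a block, and within that slide alone, Rspo2 differed by -2.51. For any gene both settings give the same estimate, because outer replicate 1 alone is set against the intermediate arrays. They are therefore not separate checks. The call was lost without intermediate replicate 3 (adjusted p = 0.0537) and without outer replicate 3 (adjusted p = 0.0507), where the difference was -3.21 and -2.82.

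Rspo3, an R-spondin known for its part in blood vessel development, went the same way as Rspo2 by a smaller amount and did not pass. Its level was -1.05, 0.45 and -0.12 on intermediate replicates 1, 2 and 3 and -1.55, -1.16 and -1.61 on the outer ones. The groups did not overlap, but intermediate replicate 1 came close to outer replicate 2. The means were -0.24 ± 0.76 (SD, n = 3) and -1.44 ± 0.25, and the difference was -1.20 with SE 0.38 (95% interval -2.09 to -0.31; limma adjusted p = 0.135). Same-numbered samples differed by -0.50, -1.61 and -1.49. With scaling to the array median, which the deposited table also has, Rspo3 passed at -1.59 (limma adjusted p = 0.0494), a scaling that also moved the median of all genes from 0.10 to -0.29.

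Rspo1, known for its part in ovary development, was measured only in intermediate samples. Its processed signal was 7.62, 79.1 and 41.2 on intermediate replicates 1, 2 and 3, the last 2 of them well above background. On the outer arrays it was 2.95, 6.35 and 5.03, none well above background. Rspo1 was therefore not tested, and no fold is given, since 1 intermediate array and all outer arrays did not measure it. The fourth family member, Rspo4, is outside the group described here and was not flagged well above background on any array.

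Lgr6, known as a stem cell marker of the skin, stood on its cDNA probe at -2.50, -2.13 and -1.41 on intermediate replicates 1, 2 and 3 and at 1.92, 0.18 and 1.70 on outer replicates 1, 2 and 3. Every outer sample lay above every intermediate sample, and outer replicate 2 was the lowest of the outer samples. In processed signal it had 25.5, 60.6 and 129 on the intermediate arrays and 179, 329 and 486 on the outer arrays, where outer replicate 1 exceeded all intermediate values although that array was the dimmest. The means were -2.01 ± 0.55 (SD, n = 3) in intermediate samples against 1.27 ± 0.94 in outer ones, so outer samples differed by 3.28 (SE 0.50, 95% interval 2.10 to 4.46, limma adjusted p = 0.0217). Same-numbered samples differed by 4.41, 2.31 and 3.11. Lgr6 differed by 3.93 both when slide was a block and within the shared slide, where outer replicate 1 alone stands for the outer samples. The call was lost without intermediate replicate 1 (adjusted p = 0.0754), 2 (0.0683) or 3 (0.0682) and without outer replicate 3 (0.0802), with differences of 3.04, 3.22, 3.58 and 3.06, and it held without the dim outer replicate 1 (2.95, limma adjusted p = 0.0342).

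The RefSeq probe of Lgr6 gave low signals and was not tested. It stood at -5.81, -4.22 and -4.38 on intermediate replicates 1, 2 and 3 and at -2.05, -3.49 and -3.06 on the outer ones. Each group had 2 arrays well above background, replicates 2 and 3 in both, and among those the outer levels lay above the intermediate ones. The processed signals there were 14.2 and 16.5 in the intermediate and 25.8 and 18.0 in the outer interzone, close to the lowest signal the arrays could call. In replicate 3 the signals were nearly the same, and the gap in level rests mainly on the arrays' 75th percentiles of 344 and 150. The RefSeq probe therefore cannot settle the direction, and the difference given for Lgr6 comes from the cDNA probe alone.

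Lgr4, the most widely expressed of the 3 receptors in other tissues, was also higher in the outer interzone. Its level was -3.16, -2.68 and -3.16 on intermediate replicates 1, 2 and 3 and -1.54, -1.18 and -1.71 on outer replicates 1, 2 and 3. The samples of a group lay close together and the groups were apart. The means were -3.00 ± 0.27 (SD, n = 3) and -1.47 ± 0.27, so outer samples differed by 1.53 (SE 0.22, 95% interval 1.00 to 2.06, limma adjusted p = 0.0193), and same-numbered samples differed by 1.62, 1.51 and 1.45. The processed signals were low, at 16.1, 41.3 and 38.5 on the intermediate and 16.3, 128 and 46.0 on the outer arrays. Replicate 1 thus showed the same signal in both layers, and its difference rests on how the dim outer array was scaled. In replicate 3 the signals of 38.5 and 46.0 were also close. Its difference of 1.45 rests mainly on the scaling of arrays with 75th percentiles of 344 and 150.

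Lgr4 kept its call in 10 of 18 alternative settings, against 15 for Rspo2 and 13 for Lgr6. The settings reuse the same arrays, and some repeat each other's estimates, so they are not independent. With normexp background correction, an offset of 50 and quantile normalization, Lgr4 differed by 0.56 (limma adjusted p = 0.0696). The processed signal of Lgr4 was below that offset on every array but outer replicate 2, and the offset was not tested apart. With each array scaled to its median Lgr4 differed by 1.14 (limma adjusted p = 0.0561). Its call was lost with slide as a block, at the same 1.46 that the shared slide gave, a difference that rests on outer replicate 1 alone. The call of Lgr4 was also lost without intermediate replicate 1 (1.45, limma adjusted p = 0.0754) or 3 (1.45, 0.0945) and without outer replicate 3 (1.64, 0.0658).

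Lgr5 varied little among samples. On its RefSeq-named probe (chr10:114887403-114887462, minus strand) it stood at 1.95, 2.27 and 1.82 on intermediate replicates 1, 2 and 3 and at 1.97, 1.71 and 1.83 on the outer ones, and the groups overlapped. The processed signal was between 186 and 1280 on all 6 arrays, well above background. The means were 2.01 ± 0.24 (SD, n = 3) and 1.84 ± 0.13, so outer samples differed by -0.18 (SE 0.19, limma adjusted p = 0.63). The 95% interval of -0.62 to 0.27 includes 0. With scaling to the median, and with the deposited values, Lgr5 differed by -0.57 (limma adjusted p = 0.211). A second Lgr5 probe, with an Ensembl transcript name and a start 13283 bases away, did not rise well above background anywhere, with processed signals from 2.74 to 4.55.

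**Figure D2:**
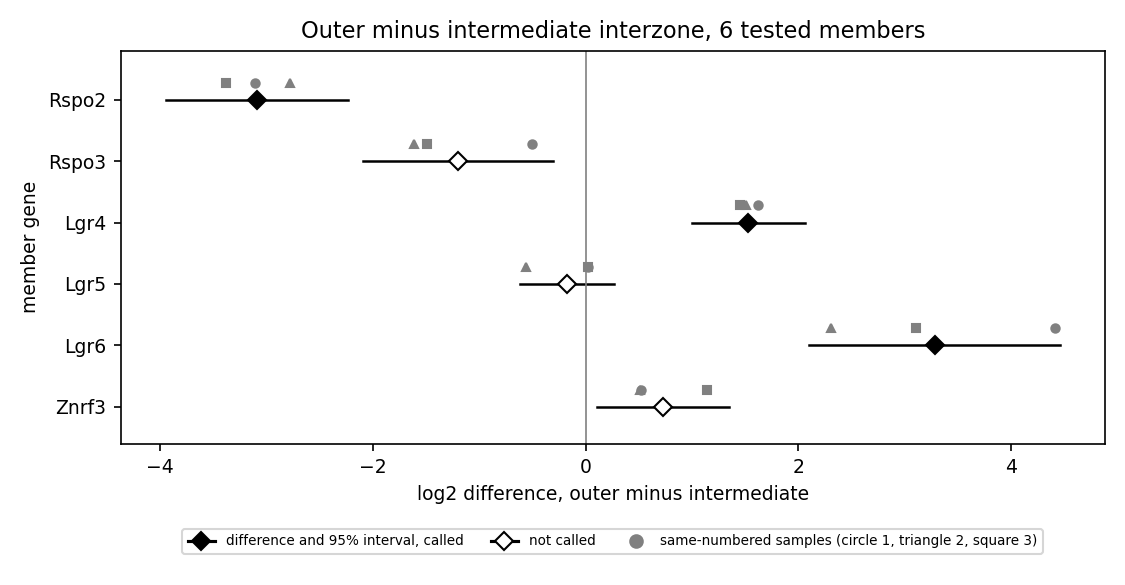
Log2 difference, outer minus intermediate (horizontal axis), of the 6 tested members (vertical axis), with diamonds for the limma estimate, filled where adjusted p was under 0.05, bars for the 95% interval and grey marks for the differences between same-numbered samples. Rspo2 lies at -3.09 and Lgr6 at 3.28, Lgr4 at 1.53 has the grey marks closest together, and the interval of Lgr5 spans 0.

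Of the ligases, only Znrf3 could be measured. Its level was -2.32, -2.85 and -2.66 on intermediate replicates 1, 2 and 3 and -1.79, -2.34 and -1.51 on the outer ones, and outer replicate 1 was not well above background. The groups met between intermediate replicate 1 and outer replicate 2. The means were -2.61 ± 0.27 (SD, n = 3) and -1.88 ± 0.42, and the difference of 0.73 with SE 0.26 did not pass (95% interval 0.11 to 1.35; limma adjusted p = 0.18). Outer samples were higher by 0.51 and 1.14 in the pairs of replicates 2 and 3, and the pair of replicate 1 is not read because its outer spot was near background. The difference of Znrf3 was 0.33 with scaling to the median and with the deposited values (limma adjusted p = 0.504). It was 0.25 with normexp background correction, an offset of 50 and quantile normalization (limma adjusted p = 0.339). Rnf43 gave processed signals from 2.68 to 8.02, below the lowest signal called well above background on each array, so its level is known only to be low on this probe.

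Correlations over the 6 arrays, given as a description, show that the members did not all run together, and that several ran in opposite directions. Lgr4 and Lgr6 ran together (Pearson r = 0.83) and both ran against Rspo2 (r = -0.94 and -0.91), and Znrf3 ran with Lgr6 (r = 0.85) and against Rspo3 (r = -0.91). The correlations of Znrf3 include outer replicate 1, where its spot was not well above background. Lgr5 had r between -0.40 and 0.58 with each of the other 5. All of these values share the 2 groups and the scaling of each array.

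Genes with the most similar levels over the 6 arrays were listed for each called member among 11204 other genes well above background on all arrays. For Rspo2 they were Arhgap28 (r = 0.997), the Wnt receptor gene Fzd6 (0.996), Dock11 (0.995) and Vps8 (0.994). For Lgr6 they were Pcp4 (0.996), Gabbr1 (0.995), Olfr319 (0.993) and Iws1 (0.992), and for Lgr4 they were 2700097O09Rik (0.995), the retinoic acid receptor gene Rarg (0.993), the myosin gene Myh14 (0.992) and Wdr35 (0.991). With 6 arrays, many genes come this close, and r was over 0.95 for 95 genes with Rspo2, 138 with Lgr6 and 182 with Lgr4.

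The rest of the Wnt reception machinery, on which R-spondins act, was called about as often as other genes. Of 33 tested genes of a 36-gene list of Wnt receptors, co-receptors and proteins close to them, 1 was up in outer samples, none was up in intermediate samples and 32 did not pass, a share of 3.03% against 4.05% of all genes. The Wnt receptor gene Fzd9 was the called gene, at 4.26 ± 0.21 (SD, n = 3) in outer samples against 2.23 ± 0.57 in intermediate ones, or 4.07-fold (limma adjusted p = 0.0211). Fzd9 did not pass when slide was a block, where outer replicate 1 alone stands for the outer samples. The co-receptor genes Lrp5 and Lrp6, targets of the ligases, differed by 0.70 (limma adjusted p = 0.358) and 0.22 (adjusted p = 0.535). Fzd6 differed by -0.81 and the heparan sulfate proteoglycan gene Gpc3 by 0.95 (limma adjusted p = 0.055 and 0.0897). Both passed with the replicate block (limma adjusted p = 0.0393 and 0.0387) and neither with slide as a block. The groups did not overlap for 13 of the 33, against 27.1% of all genes, and 8 of the 33 had an unadjusted p under 0.05, against 3793 of 18003. The list's median was 0.21, beside 0.10 for all genes.

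Genes that β-catenin signalling commonly induces gave 1 call. Of 22 listed, 15 could be tested, of which 1 was up in outer samples, 0 were up in intermediate samples and 14 did not pass (6.67% called, against 4.05% of all genes). Ccnd1, the gene of a D-type cyclin that many other signals also induce, was 2.65-fold higher in the outer interzone, at 4.60 ± 0.27 (SD, n = 3) against 3.19 ± 0.15 (limma adjusted p = 0.0179). Ccnd1 did not pass when slide was a block, where outer replicate 1 alone stands for the outer samples. Axin2, a feedback inhibitor often used as a readout of the pathway, stood at -1.80 ± 0.70 and -2.40 ± 0.63 (difference 0.60, 95% interval -0.44 to 1.63; limma adjusted p = 0.476). With the replicate block 4 of the 15 were called, all higher in the outer interzone, where 9.09% of all genes were called. Beside Ccnd1 these were the transcription factor gene Lef1 (2.14, limma adjusted p = 0.0504 without and 0.0272 with the block), the Dishevelled-binding inhibitor Nkd1 (1.12, 0.0775 and 0.0409) and the receptor gene Tnfrsf19 (0.91, 0.245 and 0.0373). With slide as a block, again on outer replicate 1 alone, Lef1, Nkd1 and Tnfrsf19 did not pass. The list's median was 0.45, beside 0.10 for all genes.

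Relatives of the receptors and of the ligases gave no call. Of the 14 listed, 6 were tested and 0 called by limma, too few to set against the 4.05% of all genes, and the 5 hormone receptors of the same leucine-rich repeat family, Fshr, Lhcgr, Tshr, Rxfp1 and Rxfp2, were among those not tested. Among the tested ligases with the domain structure of Znrf3 and Rnf43 were Rnf130 (difference -0.09, limma adjusted p = 0.782) and Rnf167 (0.41, adjusted p = 0.298). At unadjusted p under 0.05, limma also gave 0 of the 6.

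**Figure D3:**
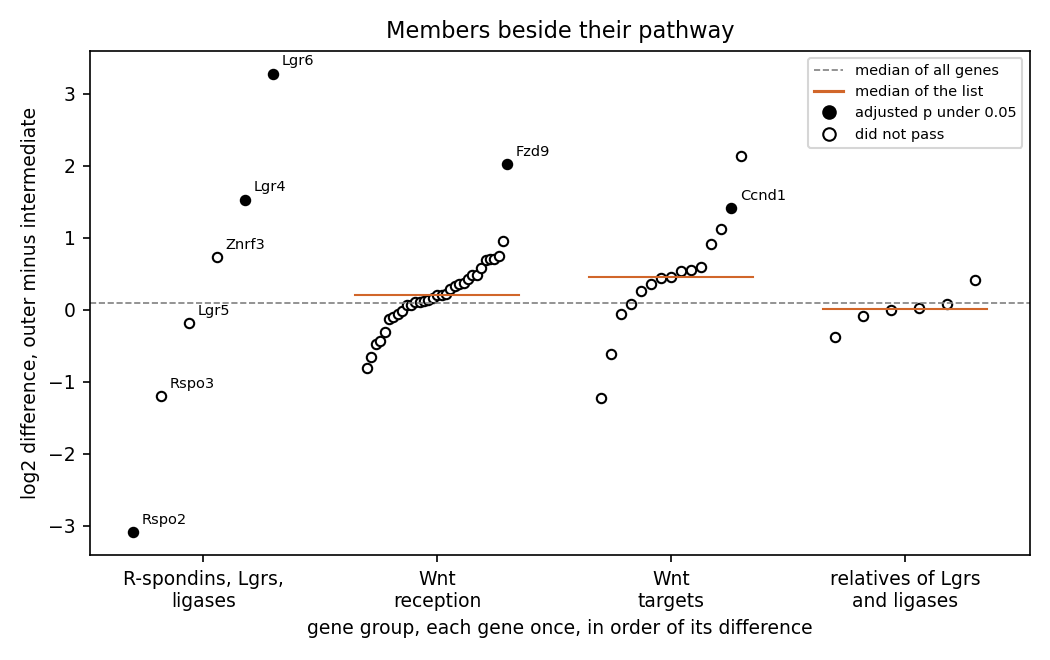
Log2 difference, outer minus intermediate (vertical axis), of each tested gene of 4 groups (horizontal axis), in order within its group, filled where adjusted p was under 0.05, with an orange bar for a list's median and a dashed line for the median of all genes. Lgr6 and Rspo2 lie beyond all genes of the 3 lists, whose called genes are Fzd9 and Ccnd1.

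Markers of other cell types moved with the same contrast. Of 8 cartilage markers, 7 were called higher in the outer interzone, in the direction of Lgr6 and Lgr4, against 1.57% of all genes. The other, Col11a1, differed by 0.92 (limma adjusted p = 0.0663). Their summed linear level (signal over the 75th percentile) was 546 to 815 in the outer and 67.4 to 121 in the intermediate samples, with Col2a1 as the largest term. In the direction of Rspo2, 6 of 7 endothelial markers were called higher in the intermediate interzone, by 3.45-fold (Egfl7) to 7.62-fold (Emcn). So were 6 of 8 leukocyte markers, by 4.85-fold (Csf1r) to 15.3-fold (Cx3cr1), against 2.48% of all genes. The mean log2 level of the endothelial list was 1.80 to 2.27 in intermediate and -0.22 to 0.35 in outer samples, and that of the leukocyte list was 2.27 to 3.04 and -0.52 to 0.79, with no overlap in either. Their summed linear levels were 79.6 to 100 against 47.8 to 72.7 and 73.3 to 122 against 46.5 to 129, and in outer samples the largest term of each sum was a probe that was not called, Kdr (difference 0.82) and Itgam (0.76). The neurofilament gene Nefl was also higher in the intermediate interzone, differing by -2.53 (limma adjusted p = 0.00503). Mural cell markers were split, with Rgs5 at -2.37 and Cspg4 at 1.27 (limma adjusted p = 0.00741 and 0.0316), and Pdgfrb and Acta2 did not pass. The part of these cells in the differences of Rspo2, Lgr4 and Lgr6 was not tested.

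Skin markers were examined because Lgr6 is known from skin. Of 6 epidermal markers, 4 were tested and 0 called by limma (0 at unadjusted p under 0.05), Epcam was well above background on 0 arrays, and the summed level was 11.2 to 15.6 in the intermediate and 12.2 to 27.4 in the outer samples. Krt14 was not tested, being well above background on 1 intermediate and 2 outer arrays. It stood at -3.97 ± 1.64 (SD, n = 3) in intermediate samples and at -2.46 ± 0.68 in outer ones. The basal keratin gene Krt5 stood at -1.33 ± 2.46 (SD, n = 3) in outer samples against -0.92 ± 2.28 in intermediate ones (limma adjusted p = 0.897), and Trp63 at 3.93 ± 0.71 and 3.24 ± 0.59 (adjusted p = 0.399). Muscle markers, with 0 of 5 tested called by limma, and tendon markers, with 0 of 3, overlapped between the groups and also gave 0 at unadjusted p under 0.05. Of the other lists, limma called 1 of 6 interzone markers in each direction, Erg at 0.95 and Gdf6 at -1.77. It called 0 of 1 tested bone marker and 0 of 2 tested erythroid markers, with 0 at unadjusted p under 0.05 in both.

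**Figure D4:**
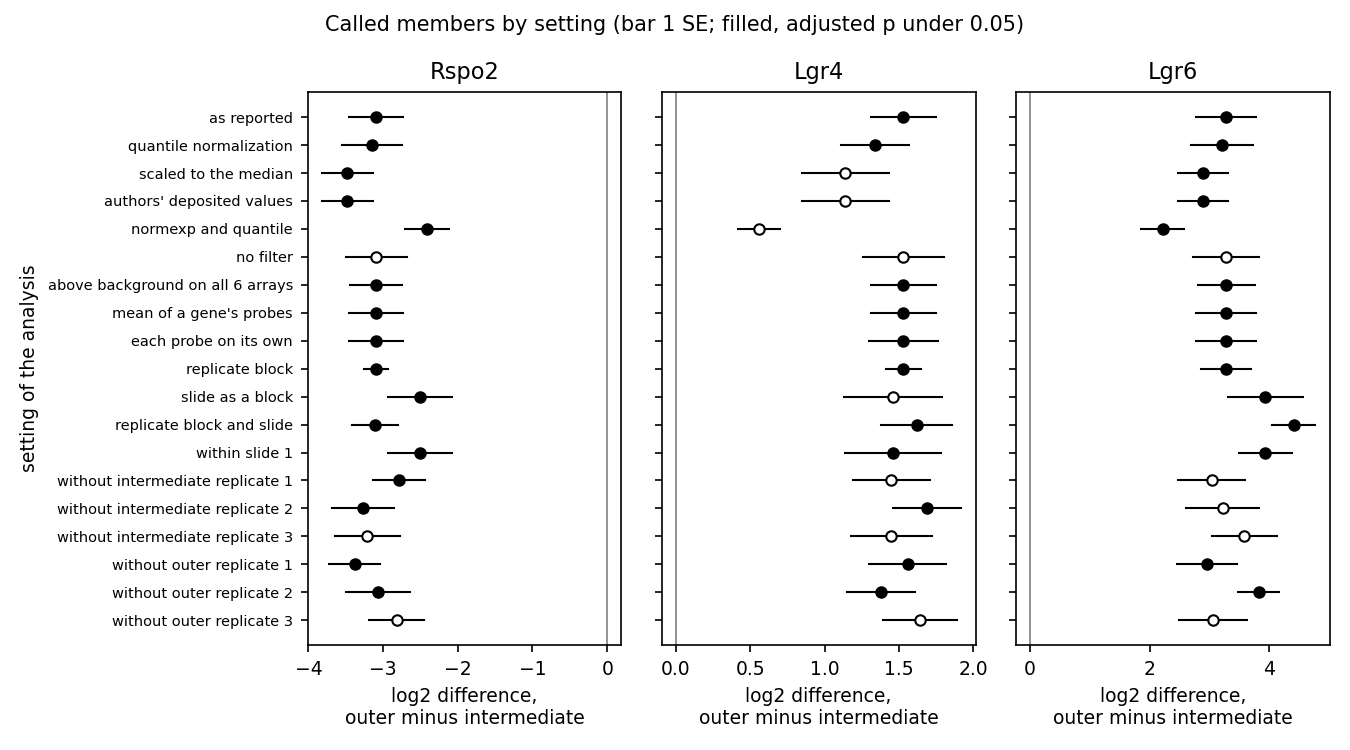
Log2 difference, outer minus intermediate (horizontal axes), of Rspo2, Lgr4 and Lgr6 under each setting of the analysis (vertical axis), with bars of 1 SE and filled marks where limma's adjusted p was under 0.05. Rspo2 stays between -3.48 and -2.41 and Lgr6 between 2.22 and 4.41, while Lgr4 spans 0.56 to 1.69 and has the most open marks.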

How the data were processed

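Per the file headers, the scans of the 6 arrays went through version 10.7.3.1 of Agilent's Feature Extraction software. Partek 6.11.0321 is listed, without a role, in the submitters' processing notes. The deposited scanner files give intensity per spot, with spatial and multiplicative detrending switched on and a separate background correction switched off per the file headers, and flags per spot. Surrogate values for signals near background were switched on there too. The authors' deposited table holds the same processed intensity divided by 1 constant per array (medians of 1; log2 was taken here).

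Processed signals were divided by the 75th percentile of their array, put on a log2 scale and averaged per probe without flagged spots, and 9 of 55681 probes were dropped. A probe well above background on all 3 arrays of a group was tested (23884 probes), and the brightest stood for its gene (18003 genes). Of 28388 probes with a RefSeq accession, 26760 matched a symbol in the RefSeq table of GRCm38, used only for names. The test was two-sided, by lmFit and eBayes of limma 3.58.1 (R 4.3.3), with Benjamini-Hochberg adjustment over all genes at 0.05. The procedure was tried on simulated arrays with independent noise, which held no slide, pair or scaling effects. Whether a probe lies in a coding or an untranslated exon was not looked up here.

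Members and lists were chosen with earlier results of these data known. Named genes are the members, the called genes with the largest difference of each list or else its 2 brightest, and the 4 genes most correlated with each called member; Lrp5, Lrp6, Axin2, genes called only with the replicate block, and other list members given above were named after their values were seen. Deviations from group means correlated at 0.563, 0.480 and 0.372 in same-numbered samples, so the numbers appear to pair them; the labels do not say that a number marks 1 embryo. Slide 1 held 3 intermediate and 1 outer array. With slide as a block, and within slide 1, each difference therefore rests on outer replicate 1 alone for the outer side. Alternatives were other scalings and background corrections, filters, probe rules, replicate and slide blocks, and each array left out. The setting called normexp added an offset of 50 and was followed by quantile normalization, so it is not a background correction alone. Marker lists are given by their counts.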

Additional observations from a re-analysis of the deposited data

How the results depend on the processing

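In all 18 alternatives each, Rspo2 stayed lower and Lgr4 and Lgr6 stayed higher in the outer interzone. Many of these settings could not have turned the direction. For groups that do not overlap, leaving out an array cannot do so. The filters, the probe rules and the replicate block alone left the estimates at -3.09, 1.53 and 3.28. The deposited values repeated the scaling to the median. With dim probes kept in, 0 genes passed in limma (4268 at unadjusted p under 0.05) and 0 members, with Rspo2, Lgr4 and Lgr6 at -3.09, 1.53 and 3.28 (adjusted p = 0.119, 0.142 and 0.136), and 0 genes of either Wnt list. More genes are tested there, and the SEs of Rspo2, Lgr4 and Lgr6 also rose, from 0.36, 0.22 and 0.50 to 0.41, 0.27 and 0.55. Lgr4 also lost its call at 1.14 with scaling to the median and with the authors' deposited values, at 0.56 with normexp and at 1.46 with slide as a block. Rspo3 gained one at -1.59 with scaling to the median and with the deposited values. That scaling divides each array by a single constant, so it moved the difference of every gene by the same amount. Why calls were lost or gained was not tested further. Lgr5 turned to 0.02 with the replicate block and slide together, which rests on the replicate 1 samples, and was -0.57 with scaling to the median and with the deposited values. Znrf3 fell from 0.73 to 0.33 with those scalings and to 0.25 with normexp. The replicate block alone changed no member's call. All genes called, 729, became 446 with quantile normalization, 1095 with scaling to the median and with the deposited values (158 higher in the outer, 937 in the intermediate interzone, against 282 and 447), 460 with signal required on all 6 arrays, 1636 with the replicate block, 1215 with slide as a block and 1314 within slide 1. The reception list's 1 call became 2 with scaling to the median, the deposited values and normexp, 3 with the replicate block and 0 with slide as a block and within slide 1. The target list's 1 call became 0 with scaling to the median, the deposited values, slide as a block and within slide 1, 2 with signal on all 6 arrays, with probes averaged per gene, with probes tested singly and with the replicate block with slide, 3 with normexp and 4 with the replicate block.

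Leaving out 1 array at a time gave 66 to 1111 genes, 0 to 3 members, 0 to 2 reception genes and 0 to 2 target genes. All genes fell to 137 without intermediate replicate 1, 381 without intermediate replicate 2, 66 without intermediate replicate 3 and 90 without outer replicate 3, and rose to 1111 without outer replicate 2. Members called fell to 0 without intermediate replicate 3 or outer replicate 3 and to 1 without intermediate replicate 1. Both lists had 0 without intermediate replicate 3 or outer replicate 3 and 2 without outer replicate 2, and the target list 0 without intermediate replicate 1 and 2 without intermediate replicate 2. Differences lay between -3.38 and -2.79 for Rspo2, 1.38 and 1.69 for Lgr4, and 2.95 and 3.82 for Lgr6. Signal over background limits Lgr4, Znrf3, Rspo1 and Rnf43, and 3 arrays per group limit every difference.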
